A study of Canis lupus familiaris with 6 samples.

Results

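Glycolytic enzymes of the canine left ventricle, with aldolase C among them, were followed across 6 arrays, 1 array per dog. The members were 10 genes chosen by name, HK1, HK2, PFKM, ALDOA, ALDOC, PGK1, ENO1, ENO3, LDHA and LDHB. Every probe set whose annotation gave exactly 1 gene symbol equal to a member was used, which gave 20 probe sets for 9 genes out of 42924 probe sets on the array other than its control probe sets. LDHB was listed only on 2 probe sets that carry several symbols, so no value is given for it, and 4 further probe sets that list LDHA among several symbols were not used. Of the 9 measured genes, 8 had an annotated gene ID that RefSeq's canine table pairs with the same symbol, and the annotated ID of HK2 was not in that table. The probe sets of a gene are numbered here in the order of their identifiers, which the plot of differences pairs with the numbers.

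The affected group was 3 Great Danes with cardiomyopathy, labelled DCM, a female of 9 years (affected 1) and 2 males of 7 years (affected 2 and affected 3). The control group was a male Labrador retriever of 12 years (control 1), a female St. Bernard of 10 years (control 2) and a male Greater Swiss Mountain dog of 4 years (control 3). All samples were frozen left ventricle tissue, which holds many cell types. Breed and disease went together in this design and cannot be told apart, and in whole tissue fewer cells of a type and less RNA per cell cannot be told apart either.

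Glycolysis splits glucose in the cytosol into pyruvate and yields ATP without oxygen, and lactate dehydrogenase interconverts pyruvate and lactate. The adult heart draws most of its ATP from fatty acid oxidation, and a larger share of glucose use is a known feature of the fetal heart and of many failing hearts. Most steps have isozymes encoded by separate genes, with muscle forms (PFKM, ALDOA, ENO3, LDHA) and forms known best from other tissues, such as aldolase C of the brain.

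The deposited log2 values were centred per probe set on the median of the 6 arrays. A value shows on which arrays a transcript was high or low but not how abundant it was. By this construction the middle pair of arrays of every probe set have equal values of opposite sign, so where groups do not overlap the nearest affected and control values mirror each other. For the same reason the presence of heart muscle could not be read as a level. Of 14 cardiomyocyte markers 12 were measured, and their median value was 0.03, 0.02 and 0.10 on the affected arrays and 0.02, -0.07 and -0.14 on the controls. The 17 tag control probe sets, which detect synthetic sequences, had mean values of -0.03, -0.03 and -0.01 on the affected arrays and 0.06, 0.01 and 0.13 on the controls, a difference of -0.09. The median difference over all 42924 probe sets was -0.08, near that of the tags. Spiked controls stood apart on affected 1 and affected 3. The hybridisation control bioC averaged -1.66 and -1.25 on these arrays, -0.04 on affected 2 and 0.05 to 0.19 on the controls, and the poly-A spikes averaged 0.55 and 2.53 on these arrays, -0.23 on affected 2 and -0.22 to -0.01 on the controls. The other hybridisation spikes, bioB, bioD and cre, went the opposite way to bioC. Their mean over 21 probe sets was 0.29 for affected 1 and 0.59 for affected 3. Affected 2 had -0.13, and the controls lay between -0.11 and -0.01. The spikes therefore did not show 1 common direction.

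Affected and control hearts were compared to find transcripts that differ with the disease. ALDOC, which encodes aldolase C, was higher on every affected array than on any control in both of its probe sets, by 1.77 and 1.60 on the log2 scale, or 3.41-fold and 3.02-fold. No other member differed by 1 or more on the log2 scale in either direction, as 2.53% (higher) and 0.764% (lower) of all probe sets did. ENO1 was higher by 0.55 to 0.57 in 3 of its 4 probe sets, and ENO3 by 0.34. HK2, PFKM, ALDOA, PGK1 and LDHA differed by between -0.26 and 0.27 in each of their probe sets, and HK1 by -0.45 to 0.27. None of the 20 probe sets passed the threshold of 0.05 after Benjamini-Hochberg adjustment over all probe sets (limma, adjusted p from 0.296 to 0.568), and 0.00233% of all probe sets did, a single unnamed one.

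At an unadjusted p under 0.05 in limma, 4 member probe sets were higher in affected hearts (ALDOC with 2, ALDOA and ENO3 with 1 each) and 2 were lower (PGK1 and ENO1 with 1 each). Over all probe sets 4.53% were higher and 6.32% lower by this criterion, which does not control false calls. The difference was above 0 in 13 of the 20 member probe sets, against 33% of all, and their median was 0.20, against -0.08 over all probe sets. The median over all probe sets lay near the -0.09 of the tags. Cardiomyocyte markers had a median difference of 0.15 over genes, with 10 of 12 above 0, so such a shift was not particular to the members. The groups did not overlap in 12 of the 20 member probe sets, against 52.2% of all. In 6 of these every affected array was above every control, against 5.37% of all, and in the other 6 every affected array was below every control, against 46.9%.

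**Figure D1:**
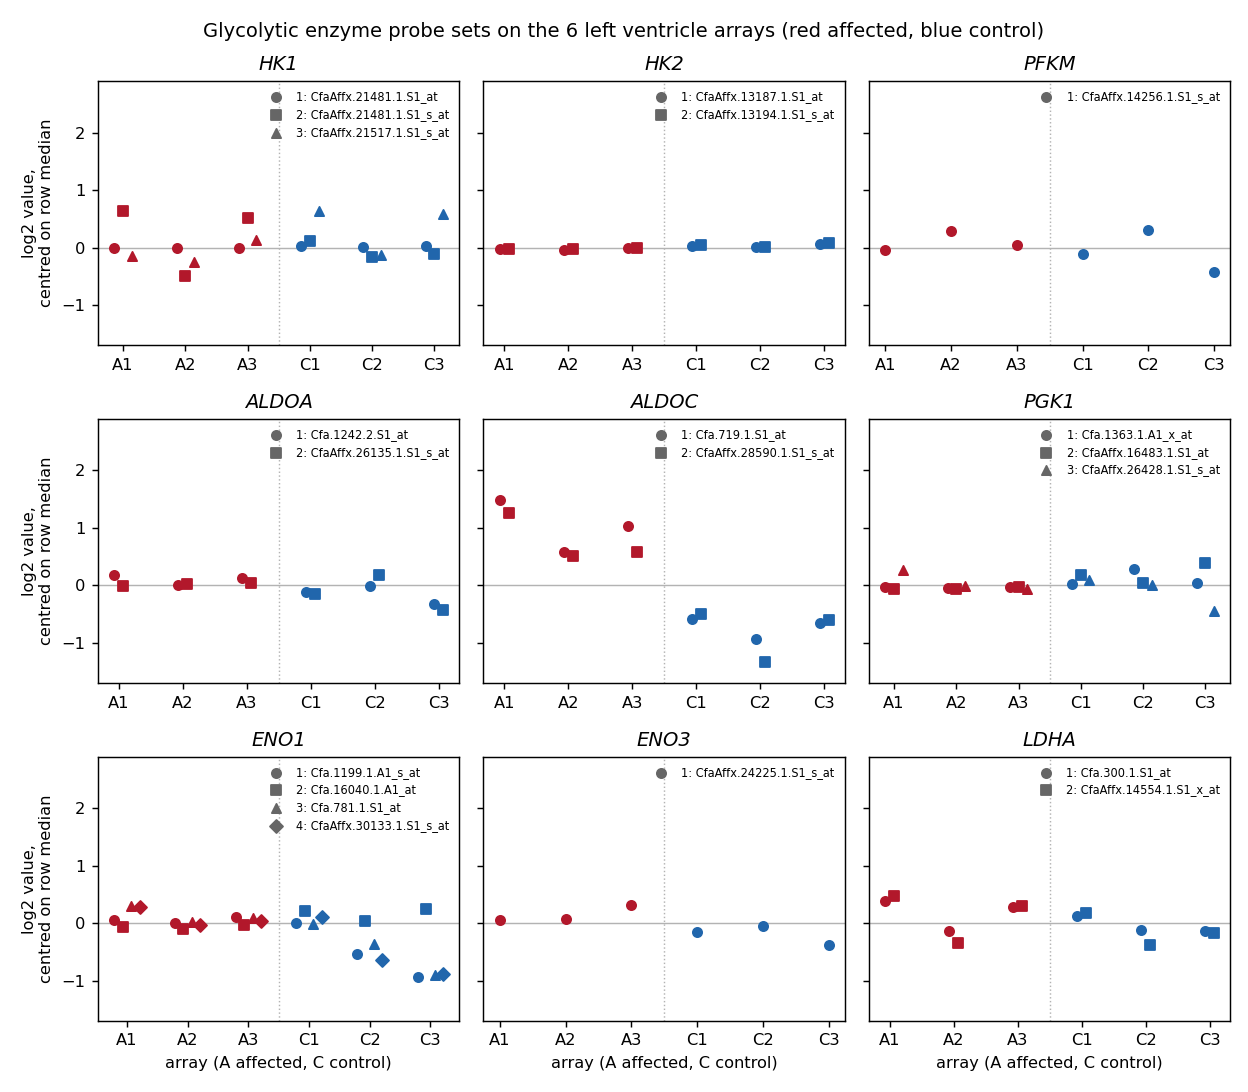
Log2 value of each member probe set, centred on its median over the arrays (vertical axis), on affected arrays A1 to A3 (red) and control arrays C1 to C3 (blue), with 1 panel per gene and 1 symbol per probe set. ALDOC is the gene whose red points all lie well above its blue points, and in ENO1 the low points are those of C2 and C3.

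Aldolases cleave fructose 1,6-bisphosphate into the triose phosphates. In probe set 1, ALDOC had 1.49, 0.59 and 1.04 in affected 1, affected 2 and affected 3, against -0.59, -0.94 and -0.65 in control 1, control 2 and control 3. Its mean was 1.04 ± 0.45 in affected and -0.73 ± 0.19 in control hearts (SD, n = 3 each), a difference of 1.77 (SE 0.25, 95% interval 1.12 to 2.41). The lowest affected array lay 1.17 above the highest control, so the groups were apart by more than the spread within either, although limma's adjusted p was 0.296 and its unadjusted p was 0.000831. An unadjusted p this small was reached by 71 of the 42924 probe sets, or 0.165%.

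In probe set 2 ALDOC had 1.25, 0.50 and 0.58 in affected hearts, against -0.50, -1.34 and -0.61 in controls. Affected 1 was again the highest array and control 2 again the lowest. The difference was 1.60 (SE 0.32, 95% interval 0.79 to 2.40, limma adjusted p = 0.296, unadjusted p = 0.00361), and the groups were 1.01 apart. A difference of 1 or more together with groups that did not overlap was present in 1.26% of all probe sets.

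Since every affected array lay above every control, the ALDOC difference had to be positive within each sex, and only its size could vary. In the 1 female pair the affected dog was higher by 2.44 and 2.59 in the 2 probe sets, and in the males the affected dogs were higher by 1.43 and 1.10, with every affected male above every control male by at least 1.17 and 1.01. For affected 2 alone, whose spiked controls did not stand apart, the difference from the controls was 1.31 and 1.32. With 1 array left out it ran from 1.54 to 2.0 in the first probe set and from 1.34 to 1.75 in the second.

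Aldolase C is known best from the brain, and so nerve and Schwann cell markers were set beside it. Of 9 such markers 7 were measured, 5 of them with a difference below 0, and the list's median was -0.01, -0.05 and -0.02 on affected and 0.07, 0.01 and 0.15 on control arrays, near the values of the tags. The neuronal ubiquitin hydrolase UCHL1 was the exception in size, with 2.16, -0.14 and 1.46 in affected hearts and 0.14, -5.86 and -1.21 in controls in one probe set, and 1.35, -0.14 and 1.47 in affected hearts and 0.14, -3.54 and -0.97 in controls in the other. Its groups overlapped in both. Control 2 was the lowest array in both, as for ALDOC, while the highest was affected 1 in one and affected 3 in the other.

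Other cell type markers also differed. Fibroblast markers had a median difference of 1.58, with 7 of 8 genes higher in affected hearts, and list medians of 1.16, 0.11 and 0.67 on affected and -0.33, -0.15 and -1.61 on control arrays. Macrophage and monocyte markers had a median difference of 0.74, with 6 of 6 genes higher, and list medians of 1.65, -0.16 and 0.09 on affected and 0.69, -0.41 and -0.61 on control arrays. Both lists were highest on affected 1, as ALDOC was, and lowest on control 3, where ALDOC was not. Neutrophil markers went the other way, with a median difference of -1.12 and 4 of 4 measured genes lower. S100A8 and S100A9 differed by -2.14 and -2.71, while the probe sets of CSF3R and MPO differed by -0.13 to -0.07. Endothelial markers had a median difference of -0.15, with 4 of 6 genes lower. The part of these cell types and of UCHL1 in the ALDOC result was not tested.

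ALDOA, the main aldolase of muscle, had 0.18, 0.01 and 0.12 in affected hearts in probe set 1, against -0.12, -0.01 and -0.33 in controls, a difference of 0.26 (SE 0.10, limma adjusted p = 0.296). Its groups were only 0.03 apart. Probe set 2 differed by 0.14 (SE 0.16), with control 2 at 0.19, above all affected arrays, and the difference was -0.0080 without control 3 and 0.30 without control 2. The log ratio of ALDOC to ALDOA, taken per array after averaging the probe sets of each gene, was 1.29, 0.53 and 0.73 in affected hearts and -0.41, -1.23 and -0.25 in controls. It was thus higher by 1.48, or 2.79-fold, in affected hearts, in 3 of 3 affected arrays (exact permutation test, two-sided, p = 0.1, the smallest that 3 against 3 arrays allow, and 0.3 adjusted over 3 isozyme pairs). The ALDOC mean was at least 0.55 on affected and at most -0.55 on control arrays, while that of ALDOA ran only from -0.38 to 0.09. The groups of the ratio therefore had to be apart, and this test adds nothing to the ALDOC result. These ratios are relative to each gene's own median and do not say which isozyme was more abundant.

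**Figure D2:**
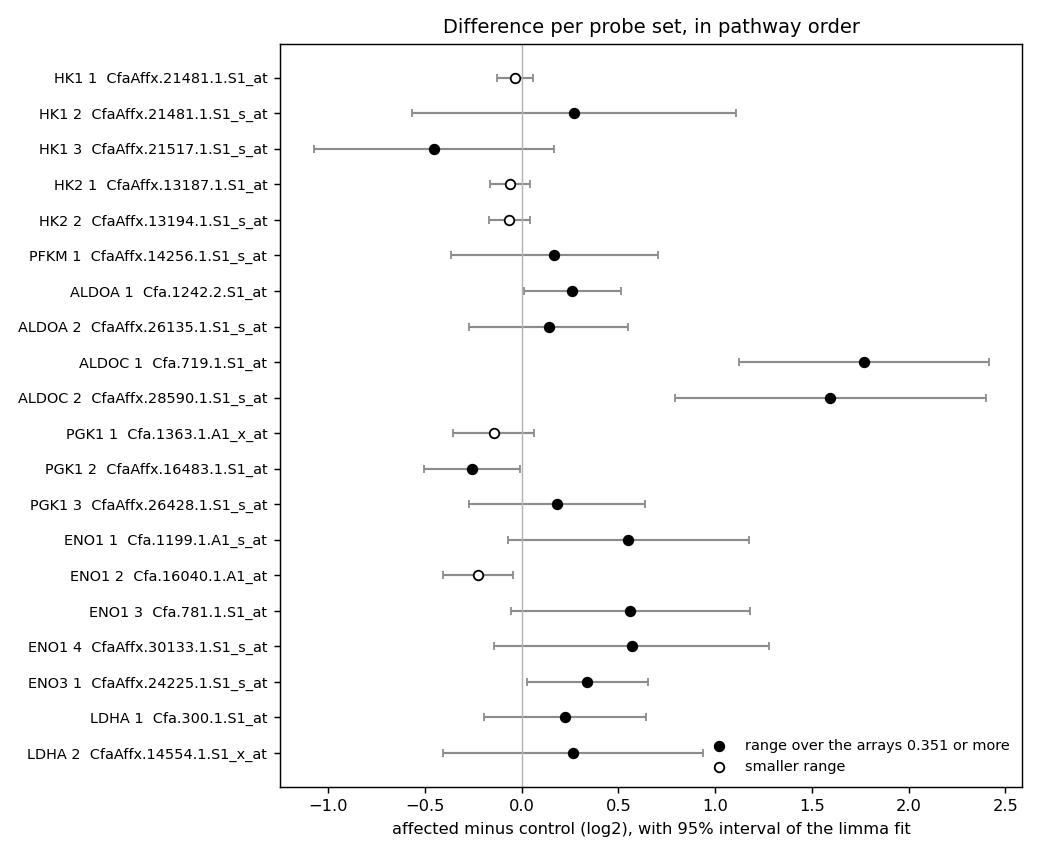
Difference between affected and control arrays on the log2 scale for each member probe set (points), with the 95% interval of the limma fit (bars), in the order of the pathway. Filled points had a range over the 6 arrays of 0.351 or more. Both ALDOC points lie near 1.6 to 1.8, and all others lie between -0.45 and 0.57.

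Upstream of the aldolases, the hexokinases phosphorylate glucose on its entry to the cell and PFKM, the muscle phosphofructokinase, commits it to glycolysis. The 3 HK1 probe sets did not run alike. Probe set 2 had 0.64, -0.49 and 0.51 in affected hearts and 0.12, -0.16 and -0.12 in controls, with affected 2 below all controls and the other affected arrays above them. Probe set 3 had -0.15, -0.25 and 0.13 in affected hearts and 0.64, -0.13 and 0.58 in controls, a difference of -0.45 (SE 0.24, limma adjusted p = 0.296) in the other direction, with overlap. Without control 2 this difference was -0.70, and that of probe set 2, 0.27 (SE 0.33), was 0.0608 without affected 1, 0.63 without affected 2 and 0.13 without affected 3. Probe set 1 ranged over 0.0462 and differed by -0.03.

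HK2, the insulin-responsive hexokinase of muscle, was measured on 2 probe sets that ranged over only 0.108 and 0.115 across the 6 arrays, and it differed by -0.06 in each. Both ran close to the tags, and after each array's median was subtracted the differences were 0.01 and 0.0084. PFKM had -0.04, 0.28 and 0.04 in affected hearts and -0.11, 0.31 and -0.43 in controls. The groups overlapped, and its difference of 0.17 (SE 0.21, 95% interval -0.37 to 0.71, limma adjusted p = 0.568) was -0.0055 without control 3, 0.0749 without affected 2 and 0.36 without control 2. The log ratio of HK2 to HK1 differed by 0.0095 (exact permutation p = 0.9, two-sided, and 0.9 adjusted over 3 pairs), with no order between affected values of -0.18, 0.22 and -0.22 and control values of -0.22, 0.10 and -0.09. The HK2 mean ran only from -0.04 to 0.08, so this ratio mostly followed the HK1 mean. That mean averaged probe sets that went in opposite directions, so the ratio cannot show how the isozymes were balanced.

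Downstream, PGK1 makes the first ATP of the pathway. Its probe sets 1, 2 and 3 differed by -0.15 (SE 0.08), -0.26 (SE 0.10) and 0.18 (SE 0.18), each with a limma adjusted p of 0.296 or more. Probe set 2 had -0.07, -0.07 and -0.03 in affected hearts and 0.19, 0.03 and 0.38 in controls, while probe set 3 had 0.27, -0.0059 and -0.07 in affected hearts and 0.09, 0.0059 and -0.45 in controls. The probe sets therefore placed control 3 at opposite ends. Probe set 1, whose identifier's suffix marks probes that may cross-hybridise, was highest on control 2 at 0.28. Without control 2 the difference of probe set 1 was -0.0620, and without control 3 those of probe sets 2 and 3 were -0.17 and 0.0155. For probe set 3 it was 0.0802 without affected 1 and 0.29 without control 1.

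ENO1, the enolase of most tissues, and ENO3, the muscle enolase, convert 2-phosphoglycerate to phosphoenolpyruvate. ENO1 had 0.29, 0.02 and 0.08 in affected hearts and -0.02, -0.37 and -0.91 in controls in probe set 3, a difference of 0.56 (SE 0.24, 95% interval -0.05 to 1.18, limma adjusted p = 0.296). In probe sets 1 and 4 it differed by 0.55 (SE 0.24) and 0.57 (SE 0.28). In all 3 probe sets control 3 was the lowest array and control 2 the next, while control 1 lay between -0.02 and 0.11, near the affected arrays. Without control 3 the 3 differences were 0.32 to 0.36, and without control 1 they were 0.77 to 0.86.

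Probe set 2 of ENO1 went the other way, with -0.06, -0.10 and -0.03 in affected hearts and 0.21, 0.03 and 0.25 in controls, a difference of -0.22 (SE 0.07, limma adjusted p = 0.296). Fibroblasts, like most cells, express ENO1. The list medians of fibroblast, macrophage and cardiomyocyte markers given above were all lowest on control 3. Those of macrophage and cardiomyocyte markers were next lowest on control 2, as in the ENO1 probe sets that were higher. That of fibroblast markers was next lowest on control 1. The part of these cell types in the ENO1 result was not tested.

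ENO3 had 0.05, 0.07 and 0.32 in affected hearts and -0.15, -0.05 and -0.38 in controls. All affected arrays lay above all controls, by 0.10 at the nearest, and the difference was 0.34 (SE 0.12, 95% interval 0.03 to 0.65, limma adjusted p = 0.296, unadjusted p = 0.0378). Cardiomyocyte markers had a median difference of 0.15, with 10 of 12 genes above 0, and their part in the ENO3 result was not tested. The log ratio of ENO1 to ENO3 differed by 0.02 (exact permutation p = 0.9, two-sided, 0.9 adjusted over 3 pairs), with affected values of 0.09, -0.09 and -0.27 and control values of 0.22, -0.33 and -0.24. ENO1 entered this ratio as the mean of its 4 probe sets, a difference of 0.36, which includes probe set 2 at -0.22. Its other probe sets differed by 0.55 to 0.57, against 0.34 for ENO3.

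LDHA encodes the lactate dehydrogenase subunit that prevails in skeletal muscle. In probe set 1 it had 0.38, -0.13 and 0.28 in affected hearts and 0.13, -0.13 and -0.14 in controls, a difference of 0.22 (SE 0.16, 95% interval -0.19 to 0.64, limma adjusted p = 0.356). Probe set 2, with the same suffix for possible cross-hybridisation as PGK1 probe set 1, gave 0.47, -0.34 and 0.30 in affected hearts and 0.18, -0.38 and -0.18 in controls. Affected 1 and affected 3 were above all controls and affected 2 was among them in both probe sets. For affected 2 alone the differences from the controls were -0.09 and -0.22, so the higher values of LDHA rested on the 2 arrays whose spiked controls stood apart, as did those of HK1 probe set 2 (-0.44 for affected 2 alone). Without affected 1 the LDHA differences were 0.12 and 0.10, without affected 2 they were 0.38 and 0.51, and in probe set 2 the difference was 0.42 without control 1 and 0.14 without control 2.

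Among the 20 probe sets, the 15 that ranged over at least 0.351 across the arrays had their highest value on affected 1 in 9 cases and their lowest value on control 3 in 9 cases. Among all 25754 probe sets with such a range, affected 1 was highest in 19.8% and control 3 lowest in 28.9%. Control 3 was also the highest array in 27.4% of all these probe sets, but in 1 of the 15 member probe sets.

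The 6 member probe sets that were lower on every affected array were 1 of HK1, both of HK2, 2 of PGK1 and 1 of ENO1. In these the affected arrays lay between -0.10 and -0.0093 and the controls between 0.0093 and 0.38. The tags, designed to match no canine transcript, were lower on the affected arrays too, and 5 of the 20 member probe sets had a range below that of the widest tag. After each array's median was subtracted, 2 of the 20 member probe sets were still lower on every affected array (1 of PGK1 and 1 of ENO1), against 18.1% of all probe sets, and 8 were higher on every affected array, against 12.9%. The 6 that were higher without this step, 2 of ALDOC, 2 of ENO1, 1 of ALDOA and 1 of ENO3, were among these 8, and the others were HK1 and HK2 probe sets with ranges of 0.0462 and 0.115.

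**Figure D3:**
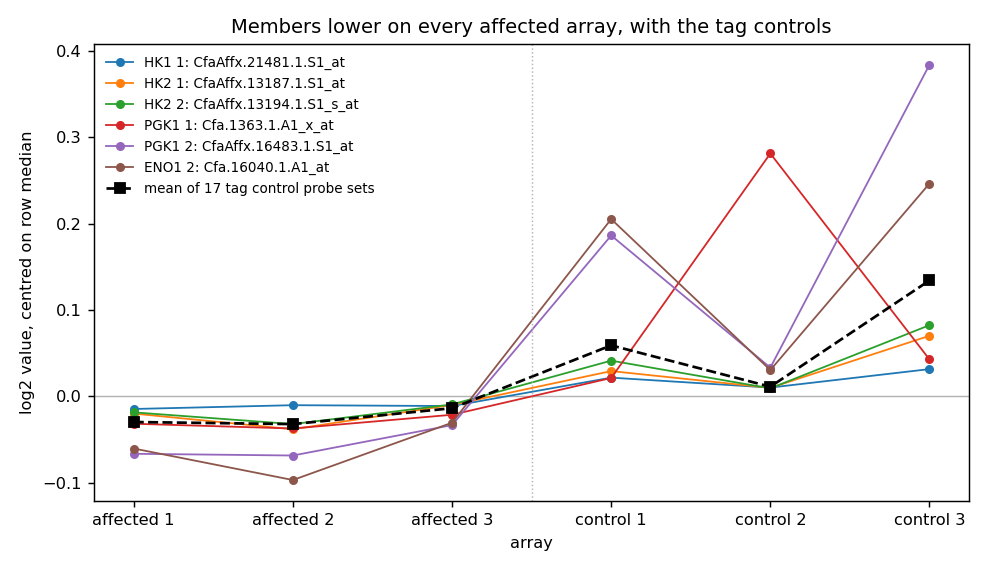
Log2 value centred on the median over the arrays (vertical axis) of the 6 member probe sets that were lower on every affected array (coloured lines) and the mean of the 17 tag control probe sets (dashed black line), on 3 affected and 3 control arrays. On the affected arrays all lie between -0.10 and -0.0093, and the tags run from -0.03 on affected arrays to 0.13 on control 3.

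The other enzymes of the pathway were described from a list of 20 gene symbols, of which 17 were measured on 33 probe sets. No probe set passed the adjusted threshold in limma, and 5 were higher at an unadjusted p under 0.05 (PFKL, TPI1, PGAM2, ENO2 and PKM) and 1 was lower (GAPDHS, the sperm form). Over all probe sets 4.53% were higher and 6.32% lower at this unadjusted p. The median difference over the 17 genes was -0.08, against -0.07 over all 15115 genes. PFKL, the liver phosphofructokinase, had differences of 0.63, 1.08, 0.63 and 0.75 in its 4 probe sets. The probe set with 1.08 had 0.82, 0.06 and 0.95 in affected hearts and -0.68, -0.06 and -0.66 in controls (SE 0.31, limma adjusted p = 0.296). In the other 3 PFKL probe sets affected 2 lay below control 2.

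The muscle phosphoglycerate mutase PGAM2 had 0.07, 0.44 and 0.21 in affected hearts and -0.07, -0.32 and -0.43 in controls, a difference of 0.51 (SE 0.14, limma adjusted p = 0.296). ENO2, the neuronal enolase, differed by 0.45 (SE 0.08, limma adjusted p = 0.296) in one probe set, with 0.17, 0.17 and 0.21 in affected hearts and -0.44, -0.17 and -0.21 in controls, and by -0.09 and -0.07 in the others. Pyruvate kinase PKM differed by 0.47 and -0.10, and TPI1 by -0.12, 0.35 and 0.19. For the other members of the list, PGAM1 differed by 0.56 and 0.29, BPGM by -0.51 and -0.30, GPI by 0.25 and PFKP by -0.03. GAPDH differed by -0.20 (SE 0.14) on its 1 annotated probe set, while the 6 GAPDH control probe sets averaged 0.12, -0.07 and 0.04 on affected and 0.04, -0.09 and -0.15 on control arrays. HK3, HKDC1, GAPDHS, PGK2, PKLR, LDHC and LDHD differed by between -0.30 and 0.03 in every probe set.

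**Figure D4:**
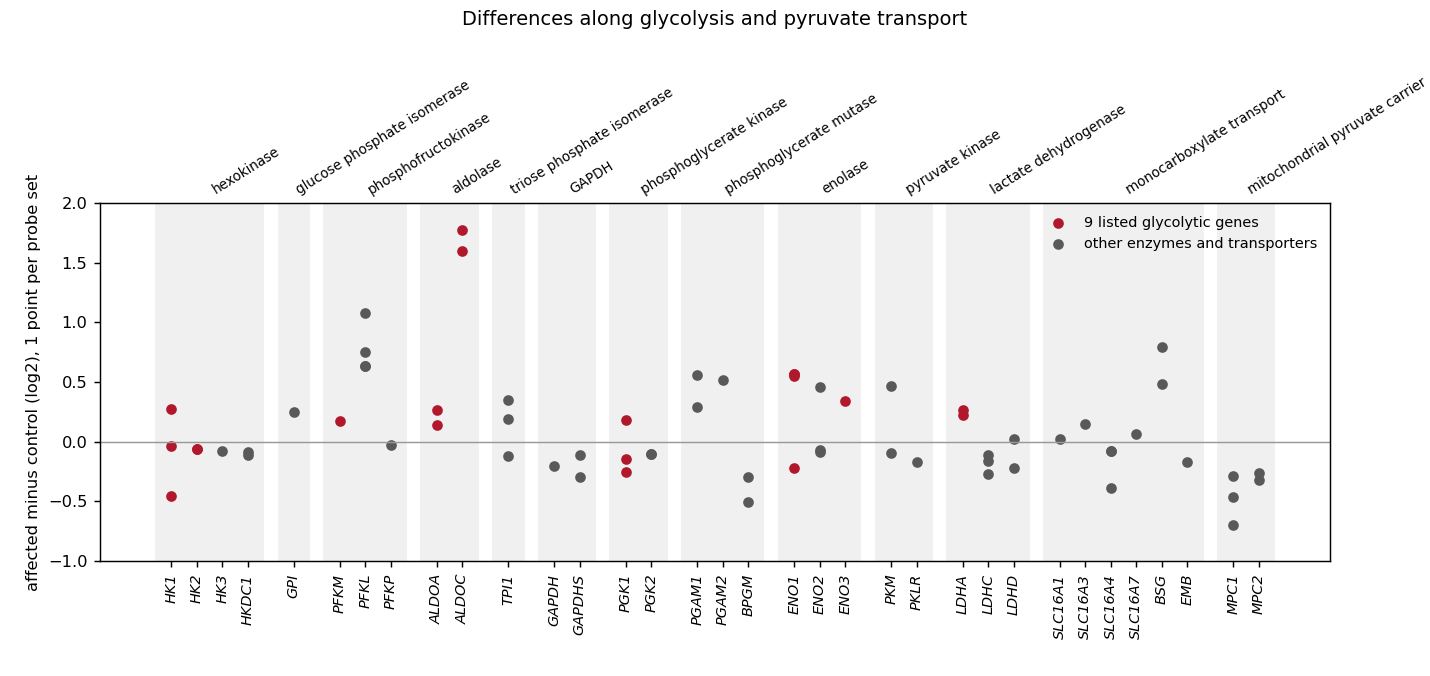
Difference between affected and control arrays on the log2 scale (vertical axis), 1 point per probe set, for genes in the order of the pathway and for the transporters of lactate and pyruvate (horizontal axis, grey bands group the genes of a step). The 2 ALDOC points (red, 1.77 and 1.60) are the highest, and every point of the mitochondrial pyruvate carrier genes MPC1 and MPC2 lies below 0.

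Among carriers of pyruvate and lactate, 8 of 10 listed symbols were measured on 14 probe sets, with 0 past the adjusted threshold in limma and 0 higher and 4 lower at an unadjusted p under 0.05. The shares over all probe sets were 4.53% higher and 6.32% lower. MPC1 and MPC2, the subunits of the carrier that takes pyruvate into mitochondria, were lower on every affected array than on any control in all 5 of their probe sets, with differences of -0.70, -0.47 and -0.29 for MPC1 and -0.32 and -0.27 for MPC2. In the probe set with the smallest p, MPC1 had -0.11, -0.33 and -0.45 in affected hearts and 0.24, 0.15 and 0.11 in controls (difference -0.47, SE 0.10, limma adjusted p = 0.296). Such a lack of overlap was present in 46.9% of all probe sets, a share that takes in differences of any size. It was 18.1% of all probe sets after each array's median was subtracted, and values after that step are not given here for MPC1 and MPC2. The monocarboxylate carriers SLC16A1, SLC16A3 and SLC16A7 differed by 0.02, 0.15 and 0.06, SLC16A4 by -0.39 to -0.08, and their partners BSG by 0.79 and 0.48, with control 1 at -2.07 and -1.45, and EMB by -0.17.

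The enzymes that set fructose 2,6-bisphosphate, an activator of phosphofructokinase, were measured for 5 of 5 listed genes on 11 probe sets, and none reached an unadjusted p under 0.05 or the adjusted threshold in limma. Of all probe sets 10.9% reached that unadjusted p. PFKFB2, the heart form, had -0.31, 1.45 and -0.18 in affected hearts and 0.01, -0.01 and 0.80 in controls. Affected 2 was thus the highest array, and PFKFB4 likewise had 0.84 on affected 2 against -0.59 and -0.45 on the other affected arrays. Values for PFKFB1 were -0.19 and -0.10, for PFKFB3 -0.14 to 0.10, and for the related phosphatase TIGAR -0.38, -0.10 and 0.35, all as differences.

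In the pathways that branch from glycolysis, 18 of 21 genes were measured on 47 probe sets, with 0 past the adjusted threshold in limma and 1 higher and 7 lower at an unadjusted p under 0.05. The shares over all probe sets were 4.53% higher and 6.32% lower. GPD1 and GPD2 pass electrons of cytosolic NADH to mitochondria through glycerol phosphate. The GPD1 probe set with the smallest p differed by -1.13 (SE 0.32) and the GPD2 probe set by -0.75 (SE 0.26), each lower on every affected array, as were 46.9% of all probe sets. A difference of -1 or less was present in 0.764% of all probe sets. GPD1 had -1.25, -0.13 and -1.03 in affected hearts and 0.13, 0.28 and 0.57 in controls, and its 4 other probe sets differed by -0.81 to -0.31. In 2 of these the groups overlapped, with affected 2 at 0.05 and 0.33, above 1 or more controls. The pentose phosphate enzymes PGLS and RPE differed by 1.09 (SE 0.39), with overlap, and -0.26 (SE 0.09), while the other probe sets of RPE differed by 0.09 to 1.11. Each of these 4 had a limma adjusted p of 0.296. PGLS had 1.31, -0.0068 and 1.04 in affected hearts and 0.0068, -0.35 and -0.57 in controls. Its higher values thus lay on affected 1 and affected 3, whose spiked controls stood apart.

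Several glycolytic genes are targets of hypoxia-inducible factors, and 24 of 25 listed symbols of that response were measured on 51 probe sets. None passed the adjusted threshold in limma, and 2 were higher and 5 lower at an unadjusted p under 0.05. The shares over all probe sets were 4.53% higher and 6.32% lower. The median difference was -0.08 over the genes. HIF1AN, an inhibitor of the factor, differed by -1.10 (SE 0.24), the heme oxygenase HMOX1 by -0.53 (SE 0.15), the pyruvate dehydrogenase kinase PDK1 by -0.65 (SE 0.20) and ANKRD37 by 0.73 (SE 0.26), each with a limma adjusted p of 0.296. These are the probe sets with the smallest p, and the other PDK1 probe set differed by -0.18, with overlap, and the other ANKRD37 probe sets by -0.14 and 0.03. HIF1AN had -1.05, -0.22 and -0.89 in affected hearts and 0.48, 0.45 and 0.22 in controls.

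The pattern of ALDOC over the arrays was compared with that of every probe set with 1 gene symbol, by the root mean square difference over 6 arrays from ALDOC probe set 2 after centring each on its mean. ALDOC probe set 1 was 0.208 away, and the median of all was 0.909. Nearest among other genes were STK26, a protein kinase, at 0.146, REEP5, a protein of the endoplasmic reticulum, at 0.225, the ephrin receptor EPHA7 at 0.234, the atrial myosin light chain MYL7 at 0.239 and the microRNA processing enzyme DROSHA at 0.263. All 5 were higher on every affected array than on any control, by differences of 1.75, 1.46, 1.30, 1.41 and 1.51 on the log2 scale. They were picked for likeness to a gene that was itself higher in affected hearts, so these differences are a description and were not tested.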

How the data were processed

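RNA of 6 frozen left ventricles, extracted on columns and labelled with biotin by the 1-cycle Affymetrix protocol per the labels' protocols, was read on canine arrays. The deposited values were taken as log2 values. GCRMA and MAS5 are named in the submitters' processing notes with no role or version, their log2 scale is an inference from the tools and the range of the values, and the genome build is not given in the sources used here. The median over the 6 arrays was 0 in every row of the deposited table (largest absolute value 5e-07). The array's 111 control probe sets entered no test. Affected minus control was tested on all 42924 other probe sets, without a filter, with limma 3.58.1 in R 4.3.3 (1 factor, group, two-sided tests, 4 residual and 1.13 prior degrees of freedom, Benjamini-Hochberg over all probe sets). A filter on range, used before on these data, is not independent of the difference and was kept as an alternative. SE is the moderated standard error.

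Isozyme log ratios averaged the probe sets per gene and were tested by exact permutation. The planned ratio of LDHA to LDHB had no value. All probe sets of members were named, with all genes of the enzyme, carrier and regulator lists, up to 4 genes with the smallest p of other lists, and the 5 genes nearest to ALDOC. UCHL1 was named after its values were seen. Members and lists were chosen with earlier results of these data known. The labels name the replicates biological, and their number limits the precision. The steps were tested on simulated data. Alternatives were a range filter, 2 other normalizations, sex, age, the replicate number as a block, a term for affected 1 and affected 3, a robust prior, gene means, the probe set with the largest range per gene and leaving out each array.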

Additional observations from a re-analysis of the deposited data

Results flagged for a closer look

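In 2 member probe sets the affected dog of the female pair differed from its control in the opposite direction to every pair of males. PFKM was -0.35 in the female pair and 0.43 in the males, and ALDOA probe set 2 was -0.20 in the female pair and 0.31 in the males. These differences between the sexes were not tested, since each sex held 1 female or 2 males per group. In both probe sets the value of control 2, the female control, was the highest of the 6 arrays.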

How the results depend on the processing

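No member probe set passed the adjusted threshold in limma under any alternative run, and both ALDOC probe sets stayed above 0, at 1.31 to 2.0 and 1.32 to 1.75, with adjusted p from 0.125 to 0.628. The probe sets called over the whole array numbered 1 as reported, 6 with the range filter, 0 after quantile normalization, with age, with the replicate block and with the term for affected 1 and affected 3, and 0 to 5 with 1 array left out. Counts at an unadjusted p under 0.05 in limma, 1945 higher and 2713 lower as reported, were 2919 and 9745 with age, 1154 and 608 with the term, and ran from 1097 to 3100 and from 655 to 12212 with 1 array left out. The lower ones were 771 with the range filter and 1097 after median centring. The direction turned after quantile normalization and median centring for HK1 probe set 1 (0.0353 and 0.0396), HK2 probe set 1 (0.0140 and 0.0136) and HK2 probe set 2 (0.0163 and 0.0084). With the term, which leaves affected 2 against the controls, it turned for HK1 probe set 2 (-0.44) and for LDHA (-0.0871 and -0.22). Gene means turned HK1 probe set 2 (-0.0712), PGK1 probe set 3 (-0.0736) and ENO1 probe set 2 (0.36), which follows from averaging probe sets that disagree. With 1 array left out, PFKM ran from -0.0055 to 0.36 and ALDOA probe set 2 from -0.0080 to 0.30, lowest without control 3. The log ratio of HK2 to HK1 was -0.34 with the largest-range probe sets. There HK1 was represented by probe set 2 alone, at 0.27, and HK2 by its probe set 2, at -0.06. The cause was not tested elsewhere. Same-numbered arrays did not all deviate together (correlations 0.27, 0.15 and 0.02 over probe sets), so the numbers were not taken as pairs. With the replicate block ALDOC kept its differences of 1.77 and 1.60 with an adjusted p of 0.357, and the count of calls was 0.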
